A study of Mus musculus with 20 samples.

Results

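The genes described here are 10 targets of the transcription factor p53, 3 of which encode receptors of the tumour necrosis factor receptor family (Fas, Tnfrsf10b and Eda2r). They were taken by gene symbol from the deposited tables, which together list 14700 symbols. All 10 were present in both tables that compare treatments and in the table that compares genotypes under deprivation. In normoxia 8 could be compared between genotypes, and Fas and Tnfrsf10b were not analysed there.

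The study compared primary cortical neurons from mouse embryos at embryonic day 15, grown for 7 days. Wild-type cultures (WT) and knockout cultures (KO), which lack the circular RNA ciRS-7 of the Cdr1as locus, were both labelled with the strain C57BL/6N-Cdr1asem1Nikr. They were held for 12 h in normoxia with glucose added at 25 mM and with pyruvate (N). The other treatment, oxygen and glucose deprivation (OGD), used 1% oxygen for the same time in medium without either addition. The groups are named N_WT, N_KO, OGD_WT and OGD_KO, 4 in all, each with 5 libraries of total RNA, which the design text calls biological replicates. An N and an OGD library with the same genotype number also share a batch label and are called a culture here. The labels do not say whether embryos were pooled.

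p53 is a transcription factor that is held low by the ubiquitin ligase Mdm2, itself a p53 target, and that accumulates after DNA damage, hypoxia and other stress. Its targets include genes that stop the cell cycle, genes that feed back on p53, and genes for death receptors, which start caspase signalling when a ligand such as Fasl binds. In neurons p53 is known chiefly for its part in death after injury, while several of the same target genes are also induced by synaptic activity or by other stress factors without p53.

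The recovered depth was 7071603 to 16657766 reads per library. The targeted locus, read as Cdr1as, had 700 to 1365 reads in the N_WT libraries and 545 to 1912 in the OGD_WT libraries, against 5 to 16 in N_KO and 2 to 14 in OGD_KO. The share of reads from mitochondrial transcripts was 13.3% to 16.9% in N_WT, 17.4% to 28.5% in OGD_WT, 14.1% to 20.8% in N_KO and 22.7% to 37.5% in OGD_KO. OGD_KO replicate 5 stood apart, with the highest of these shares and the lowest correlation with the rest of its group (0.971). Values without it are given for the results that it moves most. Of the neuron markers, 10 of 10 could be analysed, of the microglia markers 0 of 8, and of the endothelial markers 1 of 6.

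Promoters of the members were read from RefSeq (GRCm38.p6), which had an entry for 8 of the 10 genes. They are shown because the members differ in whether an exact p53 half-site lies in the 250 bases before the start. Sequence outside this window, introns included, was not searched. The 4 below are the 250 bases before the annotated start on the gene's own strand, with the motif in capitals. In Cdkn1a, at chr17:29090729-29090978 on the plus strand (entry 1 of 2), the capitals mark 2 exact matches to the p53 half-site. In Mdm2, at chr10:117710759-117711008 on the minus strand, they mark 1 p53 half-site. In Btg2, at chr1:134079156-134079405 on the minus strand, they mark TGACGTCA, the cyclic AMP response element (CRE). In Fas, at chr19:34290409-34290658 on the plus strand, they mark TGANTCA, the AP-1 motif.
Cdkn1a: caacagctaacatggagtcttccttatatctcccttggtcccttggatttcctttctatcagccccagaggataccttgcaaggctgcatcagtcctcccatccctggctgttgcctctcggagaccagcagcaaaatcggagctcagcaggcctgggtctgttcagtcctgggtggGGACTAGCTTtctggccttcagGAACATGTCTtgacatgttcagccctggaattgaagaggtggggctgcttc
Mdm2: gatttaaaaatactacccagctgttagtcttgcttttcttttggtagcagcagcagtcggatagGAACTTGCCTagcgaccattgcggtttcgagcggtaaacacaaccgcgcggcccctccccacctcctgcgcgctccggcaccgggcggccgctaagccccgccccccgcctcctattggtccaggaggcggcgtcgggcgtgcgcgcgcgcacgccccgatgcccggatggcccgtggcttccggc
Btg2: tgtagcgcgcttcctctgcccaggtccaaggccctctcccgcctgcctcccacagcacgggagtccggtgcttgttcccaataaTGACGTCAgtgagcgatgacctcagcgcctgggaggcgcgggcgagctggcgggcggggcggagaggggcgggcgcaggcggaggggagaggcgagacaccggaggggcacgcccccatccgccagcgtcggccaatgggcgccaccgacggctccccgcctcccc
Fas: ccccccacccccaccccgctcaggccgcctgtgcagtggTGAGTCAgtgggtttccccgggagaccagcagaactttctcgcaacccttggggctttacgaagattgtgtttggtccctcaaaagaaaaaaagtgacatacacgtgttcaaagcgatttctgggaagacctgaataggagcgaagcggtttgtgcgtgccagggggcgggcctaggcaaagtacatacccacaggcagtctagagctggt

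The p53 half-site was found in the windows of 4 of the 8 members with an entry (Cdkn1a, Mdm2, Ccng1 and Gadd45a), against 7.13% of 32851 RefSeq promoters of the same length. Its first base lay 73 and 51 bases before the start in Cdkn1a entry 1, 186 in Mdm2, 185 in Ccng1 and 40 in Gadd45a. Entry 2 of Cdkn1a held no match to the half-site. Cdkn1a was counted for a motif if either entry held it, while the shares are of single promoters. The CRE was found in Btg2 alone of the 8, at 166 bases, against 1.55% of promoters. TGANTCA was found in Fas alone of the 8, at 211 bases, against 6.75%. The hypoxia response core, ACGTG or GCGTG on either strand, was found in 5 of the 8 (Cdkn1a entry 2, Mdm2, Ccng1, Btg2 and Fas), against 38.6% of promoters. All motifs were searched on both strands, and a match is a string of letters, not a bound site. Only exact matches were searched, so near matches are neither marked nor counted.

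The first comparison asked how the members responded to OGD in each genotype. Under OGD 9 of the 10 members were called higher in WT neurons and 7 of 10 in KO neurons, where called means a limma Benjamini-Hochberg adjusted p below 0.05 over all genes of the table. Of all genes tested 21.6% were called higher in WT and 21.0% in KO. Fas and Tnfrsf10b were analysed only where OGD libraries enter the comparison, so a gene filter that they passed through the higher OGD group could favour a rise. Over the other 8 members the counts were 7 in WT and 5 in KO. Fas rose most, from near the limit of detection. Mdm2, Eda2r and Btg2 rose by about a doubling or more in both genotypes, and Phlda3, Gadd45a and Tnfrsf10b rose in both, by 0.59 to 1.36 on the log2 scale. Cdkn1a and Ccng1 were called in WT alone, and Trp53inp1 was called in neither. The median log2 fold change of the 10 members was 0.67 in WT and 1.02 in KO, beside -0.03 and 0.0 over all genes. Over the 8 members that were analysed in normoxia too, the median was 0.61 in WT and 0.96 in KO.

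**Figure D1:**
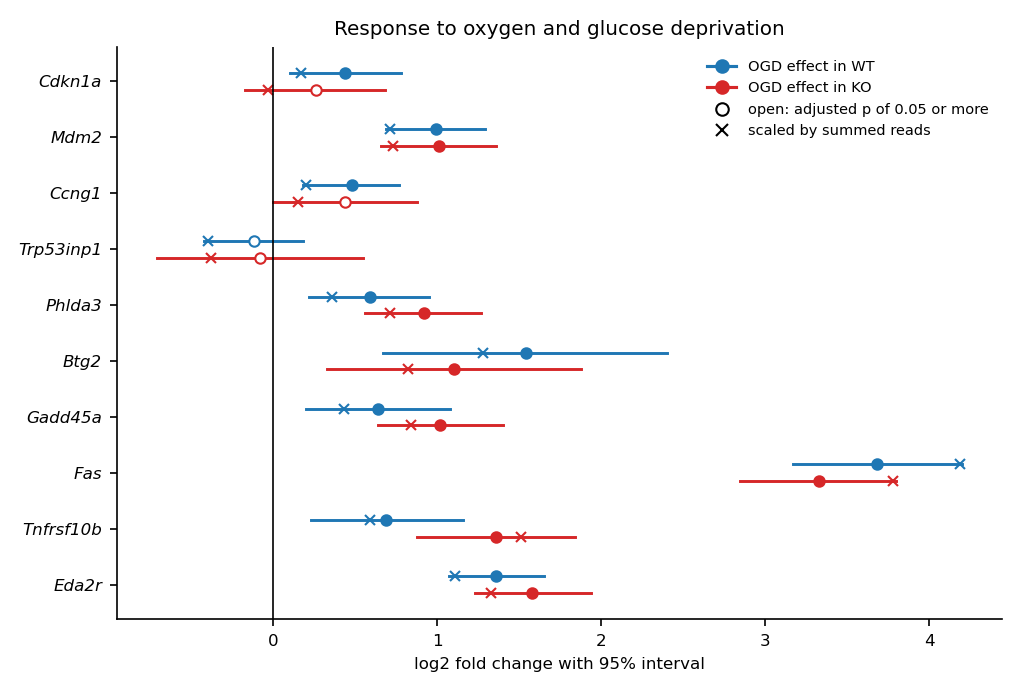
Log2 fold change under OGD of the 10 members in WT (blue) and KO (red), as points with 95% intervals from limma. Filled points were called, and crosses give the value when libraries are scaled by their summed reads. Fas stands to the right of all others at 3.68 and 3.33, and Trp53inp1 sits just left of 0 in both genotypes.

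Levels differ widely among the members. Per kilobase of exon, the mean level in N_WT was 14.8 CPM per kb for Ccng1, a cyclin G that recruits a phosphatase to Mdm2. It was 11.1 CPM per kb for Btg2, 8.88 for Mdm2 and 7.3 for Trp53inp1. Cdkn1a followed at 3.55, Phlda3 at 1.82, Eda2r at 1.41 and Gadd45a at 1.19. The lowest were Tnfrsf10b at 0.136 and Fas at 0.115 CPM per kb. Under OGD Fas reached 3.85 CPM per kb in WT and 3.17 in KO, beside 3.75 and 3.68 for Eda2r, whereas Tnfrsf10b was the lowest of the members at 0.277 and 0.319.

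Fas encodes the death receptor that binds Fas ligand and recruits Fadd and caspase-8. Its 5 N_WT libraries held 5, 2, 0, 6 and 1 reads, and its 5 OGD_WT libraries held 89, 95, 105, 87 and 45. In KO neurons the counts were 3, 5, 1, 5 and 1 reads in N and 104, 98, 92, 59 and 21 under OGD. Every OGD library lay above every N library in both genotypes. Mean Fas expression went from 0.236 ± 0.221 CPM to 7.94 ± 2.68 CPM in WT and from 0.26 ± 0.182 CPM to 6.54 ± 1.75 CPM in KO (SD, n = 5 each). The ratio of pooled reads, scaled as in the tables, was 31.3 in WT (95% counting interval 18.5 to 57.8) and 27.9 in KO (16.7 to 50.3). On the deposited log2 scale, which adds a prior count and so understates low genes, the log2 fold change was 3.68 ± 0.25 (SE) in WT (limma adjusted p 3.2e-10) and 3.33 ± 0.23 (SE) in KO (limma adjusted p 9.43e-09).

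Within cultures the Fas difference on the log2 CPM scale ran from 3.02 to 4.55 in WT and from 2.96 to 3.69 in KO. The lowest OGD_KO value, 1.99 log2 CPM in replicate 5, was below the other 4 at 2.83 to 3.05 but still above all N_KO libraries. Without it the KO log2 fold change was 3.52. With each library left out in turn the log2 fold change of Fas stayed between 3.53 and 3.85 in WT and between 3.21 and 3.52 in KO. Counting intervals cover counting error only. Fas lies on chromosome 19 at 34290666 to 34327772 (GRCm38, plus strand), and the annotation places the small RNA gene Gm27818 inside it on the same strand.

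Eda2r encodes the receptor for the A2 form of ectodysplasin. In N_WT its levels were 3.29, 3.01, 3.1, 3.13 and 3.1 log2 CPM, and in OGD_WT they were 4.33, 4.3, 4.51, 4.67 and 4.62. In N_KO they were 3.12, 3.32, 2.53, 2.52 and 2.9, and in OGD_KO 4.24, 4.49, 4.69, 4.3 and 4.59. The groups did not overlap in either genotype, and the N_KO libraries were more spread than the N_WT libraries. Eda2r rose by 1.36 ± 0.14 (SE) in WT (limma adjusted p 2.08e-07) and by 1.58 ± 0.17 (SE) in KO (limma adjusted p 1.51e-06). The rise within cultures was 1.04 to 1.54 in WT and 1.12 to 2.16 in KO.

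Tnfrsf10b encodes the mouse receptor for the death ligand TRAIL, the product of Tnfsf10. It was near the limit of detection, with 16, 10, 7, 6 and 5 reads in the N_WT libraries and 17, 11, 16, 21 and 13 in the OGD_WT libraries. In N_KO it had 3, 11, 1, 5 and 8 reads and in OGD_KO 23, 13, 29, 17 and 11. The WT groups overlapped, since N_WT replicate 1 at 0.61 log2 CPM lay above OGD_WT replicates 1 and 2 at 0.6 and 0.54, and the KO groups did not. The log2 fold change was 0.69 ± 0.22 (SE) in WT (limma adjusted p 0.0151, exact permutation p 0.0238) and 1.36 ± 0.23 (SE) in KO (limma adjusted p 0.00013). The ratio of pooled reads was 1.85 in WT (95% counting interval 1.26 to 2.74) and 3.71 in KO (2.41 to 5.88). With the culture as a block the WT call was lost (limma adjusted p 0.0501). Other genes share 6.21% of its 50-base words.

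**Figure D2:**
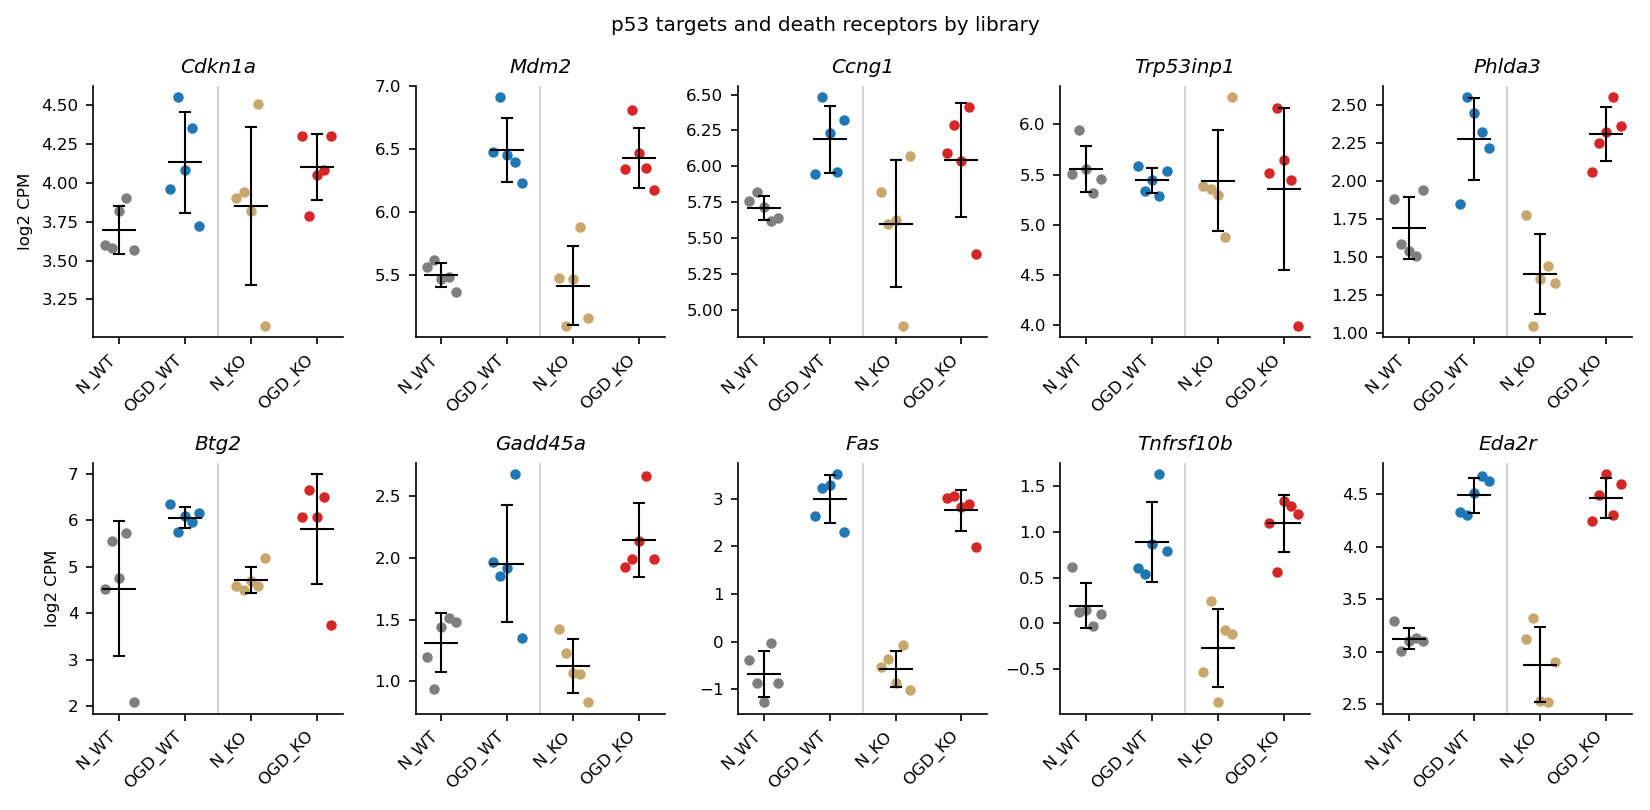
Log2 CPM of each member in the 5 libraries of each group (points in order of replicate number), with the mean and SD in black. Values come from the table of each genotype's own OGD comparison, and the vertical line separates them. Fas, Eda2r and Mdm2 have OGD libraries wholly above the N libraries in both genotypes, and Btg2 and Trp53inp1 show 1 low OGD_KO library, replicate 5.

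Mdm2 encodes the ubiquitin ligase that binds p53 and marks it for degradation. Its levels were 5.57, 5.62, 5.47, 5.49 and 5.37 log2 CPM in N_WT and 6.48, 6.91, 6.45, 6.4 and 6.23 in OGD_WT. In KO neurons they were 5.48, 5.1, 5.47, 5.88 and 5.16 in N and 6.34, 6.81, 6.47, 6.35 and 6.18 under OGD. The groups did not overlap in either genotype. Mdm2 rose by 0.99 ± 0.15 (SE) in WT (limma adjusted p 1.56e-05) and by 1.01 ± 0.17 (SE) in KO (limma adjusted p 0.000109). In CPM, reads scaled per library, this was 45.1 ± 2.96 against 91.0 ± 17.1 in WT and 43.1 ± 9.72 against 86.8 ± 15.2 in KO (SD, n = 5 each). The other members with a p53 half-site in the window (Cdkn1a, Ccng1 and Gadd45a) were at 0.44 to 0.64 in WT and at 0.26 to 1.02 in KO.

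Cdkn1a encodes the cell cycle inhibitor p21. Its levels were 3.6, 3.58, 3.82, 3.9 and 3.57 log2 CPM in N_WT and 3.96, 4.55, 4.08, 4.35 and 3.72 in OGD_WT. In N_KO they were 3.9, 3.94, 3.82, 4.51 and 3.08, and in OGD_KO 4.3, 3.79, 4.05, 4.08 and 4.3. The groups overlapped in both genotypes, and the N_KO libraries spanned more than the whole OGD_KO range. The log2 fold change was 0.44 ± 0.16 (SE) in WT (limma adjusted p 0.0328, exact permutation p 0.0317) and 0.26 ± 0.2 (SE) in KO (limma adjusted p 0.324, 95% interval -0.17 to 0.68). It was higher under OGD in 5 of 5 WT cultures and 3 of 5 KO cultures. The WT call was lost without N_WT replicate 1, 2 or 5 or without OGD_WT replicate 2, 3 or 4, with limma adjusted p-values over all single omissions of 0.00648 to 0.0885. In the batch 3 cultures alone the WT log2 fold change was 0.46 (limma adjusted p 0.083). Cdkn1a lies on chromosome 17 at 29090976 to 29100727 (GRCm38, plus strand) with a gene model on the opposite strand over it, and other genes share 8.49% of its 50-base words.

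Ccng1 averaged 5.71 ± 0.08 log2 CPM in N_WT and 6.19 ± 0.23 in OGD_WT, without overlap (SD, n = 5 each). In KO neurons it averaged 5.6 ± 0.44 and 6.04 ± 0.4, with overlap. Ccng1 rose by 0.48 ± 0.14 (SE) in WT (limma adjusted p 0.00974), while in KO the log2 fold change was 0.44 ± 0.21 (SE; limma adjusted p 0.0997, exact permutation p 0.135). Only KO culture 5 was lower under OGD (-0.68), and the other 9 cultures were higher by 0.19 to 1.52. Without N_KO replicate 5 or without OGD_KO replicate 5 Ccng1 was called in KO as well, and over all single omissions its KO adjusted p ran from 0.0104 to 0.288.

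Btg2 encodes an antiproliferative protein that acts with the deadenylase complex and is also an early response gene. In N_WT its levels were 4.53, 5.55, 4.75, 5.72 and 2.08 log2 CPM, and in OGD_WT 6.35, 5.74, 6.1, 5.96 and 6.16. In N_KO they were 4.58, 4.51, 4.69, 4.58 and 5.19, and in OGD_KO 6.08, 6.66, 6.08, 6.51 and 3.74. The WT groups did not overlap, although OGD_WT replicate 2 at 5.74 was next to the highest N_WT library at 5.72. In KO the single library OGD_KO replicate 5 lay below all N_KO libraries. Btg2 rose by 1.54 ± 0.42 (SE) in WT (limma adjusted p 0.00499) and by 1.1 ± 0.37 (SE) in KO (limma adjusted p 0.0235, exact permutation p 0.0635).

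The difference of Btg2 within cultures ran from 0.19 to 4.08 in WT and from -1.44 to 2.15 in KO, the widest span of the 10 members in both genotypes. With single libraries left out the KO value ran from 0.89 to 1.62 and the adjusted p from 9.98e-08 to 0.0878, with 1.62 found without OGD_KO replicate 5. The KO call was lost without N_KO replicate 2 or 4, without OGD_KO replicate 2 or 4, and with the culture as a block (limma adjusted p 0.0557). In WT the value ran from 0.92 to 1.83 over single omissions and the call was kept in each, and without N_WT replicate 5 it was 0.92.

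Gadd45a encodes a stress sensor that binds cell cycle and repair proteins. It averaged 1.31 ± 0.24 log2 CPM in N_WT and 1.95 ± 0.48 in OGD_WT (SD, n = 5 each), with overlap through OGD_WT replicate 5 at 1.35. In KO neurons the means were 1.12 ± 0.22 and 2.14 ± 0.3, without overlap. The rise was 0.64 ± 0.21 (SE) in WT (limma adjusted p 0.0175, exact permutation p 0.0317) and 1.02 ± 0.18 (SE) in KO (limma adjusted p 0.000222). The WT call was lost without N_WT replicate 2 (limma adjusted p 0.0558), without OGD_WT replicate 4 (limma adjusted p 0.0561) and in the batch 3 cultures alone (limma adjusted p 0.0581). Other genes share 15.61% of its 50-base words, the largest share among the members, and E230016M11Rik overlaps it on the opposite strand.

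Phlda3 encodes a small membrane-binding protein that restrains Akt. It averaged 1.69 ± 0.2 log2 CPM in N_WT, 2.28 ± 0.27 in OGD_WT, 1.39 ± 0.26 in N_KO and 2.31 ± 0.18 in OGD_KO (SD, n = 5 each). OGD_WT replicate 1 at 1.85 fell within the N_WT range, and the KO groups did not overlap. Phlda3 rose by 0.59 ± 0.17 (SE) in WT (limma adjusted p 0.00935, exact permutation p 0.0238) and by 0.92 ± 0.17 (SE) in KO (limma adjusted p 0.000328).

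Trp53inp1 encodes a nuclear stress protein that takes part in p53 phosphorylation and in autophagy. Its levels were 5.32 to 5.94 log2 CPM in N_WT, with median 5.51, and 5.29 to 5.59 in OGD_WT, with median 5.45. In KO they were 4.88 to 6.27 in N, with median 5.36, and 3.99 to 6.16 under OGD, with median 5.52. The groups overlapped in both genotypes. The log2 fold change was -0.12 (95% interval -0.42 to 0.18) in WT (limma adjusted p 0.535) and -0.08 (95% interval -0.71 to 0.55) in KO (limma adjusted p 0.845). KO culture 5 fell by 2.28, while the other 4 KO cultures were higher by 0.14 to 0.8. In that culture the N library was the highest of N_KO at 6.27 and the OGD library the lowest of OGD_KO at 3.99. Without OGD_KO replicate 5 the KO log2 fold change was 0.26 (limma adjusted p 0.331).

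**Figure D3:**
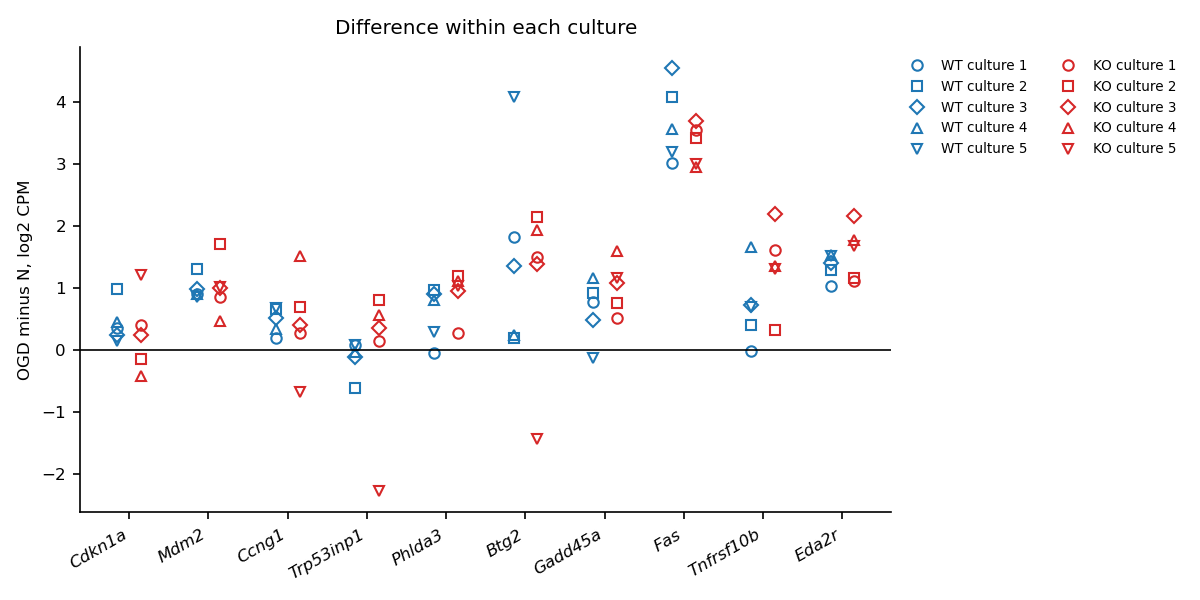
Difference between the OGD and the N library of each culture, in log2 CPM, for the 10 members in WT (blue) and KO (red), with 1 symbol per culture number. KO culture 5 lies below 0 for Btg2, Trp53inp1 and Ccng1 and has the highest KO value for Cdkn1a, 1.21, while Fas is at 2.96 or higher in all 10 cultures.

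Of the 10 members, 5 in WT (Mdm2, Ccng1, Btg2, Fas and Eda2r) and 6 in KO (Mdm2, Phlda3, Gadd45a, Fas, Tnfrsf10b and Eda2r) had all OGD libraries above all N libraries. Over all genes tested this was so for 13.9% in WT and 13.4% in KO. Fas and Tnfrsf10b, which are among these members, were not analysed in normoxia, so a gene filter passed through OGD could favour them. For each member without overlap the exact permutation p was 0.00794, the smallest that 5 against 5 libraries allow. The batch 3 cultures, 4 in WT and 3 in KO, gave log2 fold changes of 3.85 and 3.13 for Fas, 1.44 and 1.54 for Eda2r, and 1.01 and 1.07 for Mdm2, all called by limma. There 7 of 10 members were called higher in WT, beside 16.8% of all genes, and 7 of 10 in KO, beside 8.28%. Of the 8 members that were analysed in normoxia too, 5 were called higher there in each genotype. In KO the SE of every member there was 0.3 to 0.33, so those calls hardly reflect each gene's own spread. Btg2 is among the 7 in KO at 0.88, although its difference in KO culture 5 was -1.44. No separate test was possible in batches 1 and 2, with at most 1 culture of each genotype.

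The size of the smaller changes depends on how libraries are scaled. With libraries scaled by their summed reads, in which the mitochondrial share counts in full, the median log2 fold change of all genes was -0.3 in WT and -0.28 in KO. Then 4 of 10 members were called higher in WT (Mdm2, Btg2, Fas and Eda2r), against 11.4% of all genes, and Trp53inp1 was called lower at -0.4 (limma adjusted p 0.0379). Cdkn1a, Ccng1, Phlda3, Gadd45a and Tnfrsf10b were at 0.17, 0.2, 0.36, 0.43 and 0.59 in WT, with limma adjusted p-values of 0.0625 to 0.407. In KO 6 of 10 were called higher, against 10.3% of all genes, Btg2 was not (0.82, limma adjusted p 0.108) and Cdkn1a was at -0.03. Of the 8 members that were analysed in normoxia too, 3 were called higher in WT and 4 in KO. Over all genes this scaling gave 1625 higher and 5744 lower calls in WT, where the deposited scaling gave 3069 and 3244, and 1479 and 5289 in KO in place of 3021 and 2863. Relative to the median of all genes, Mdm2 in WT was 1.02 above it under the deposited scaling and 1.01 above it under summed reads, and Cdkn1a was 0.47 above it under both. The lowest expressed members moved: Fas went from 3.71 to 4.49 above the median in WT and from 3.33 to 4.06 in KO, and Tnfrsf10b from 0.72 to 0.89 in WT and from 1.36 to 1.79 in KO. The summed-read values also use a prior count of 2. The part of the mitochondrial share in the differences between the scalings was not tested.

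Markers of other cell states moved with OGD as well. Beside the counts below, 21.6% of all genes were called higher and 22.8% lower in WT, and 21.0% and 19.9% in KO. Of the proliferation markers 8 of 8 were called higher in each genotype, and their summed level was 430 to 563 CPM in N_WT, 814 to 1450 in OGD_WT, 400 to 648 in N_KO and 978 to 1320 in OGD_KO. Astrocyte markers, of which 7 of 8 could be analysed (4 called higher and 1 lower in WT, 3 higher in KO), summed to 1040 to 1240 CPM in N_WT and 1520 to 2010 in OGD_WT, and to 774 to 1410 and 1380 to 1930 in KO. Neural progenitor markers, of which 2 of 6 were called higher in each genotype and 1 lower in WT, summed to 335 to 535 CPM in N_WT and 480 to 1040 in OGD_WT, and to 372 to 610 and 695 to 977 in KO. Neuron markers (6 of 10 called lower in WT, 7 of 10 in KO) summed to 4550 to 5900 CPM in N_WT and 2940 to 5290 in OGD_WT, and to 4920 to 5100 and 3140 to 4090 in KO. Oligodendrocyte lineage markers, of which 7 of 8 could be analysed, gave 1 higher and 2 lower calls in WT and 3 higher in KO. In whole cultures, fewer cells of a type and less RNA per cell cannot be told apart. The part of these shifts in the members' changes was not tested.

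Other genes of the p53 pathway were then described. Of 30 such genes, 28 were measured in WT and 29 in KO, and 10 rose and 4 fell in WT while 10 rose and 3 fell in KO. Of all genes 21.6% were called higher and 22.8% lower in WT, and 21.0% and 19.9% in KO. Their median log2 fold change was 0.27 and 0.31, beside -0.03 and 0.0 for all genes. Scaled by summed reads, 6 were called higher and 8 lower in WT, and 8 and 7 in KO, with medians of 0.0 and 0.02. Under that scaling 11.4% of all genes were called higher and 40.4% lower in WT, and 10.3% and 36.8% in KO, and their medians were -0.3 and -0.28. Trp53, the gene for p53, rose by 1.01 in WT (limma adjusted p 2.45e-05) and by 0.99 in KO (limma adjusted p 8.37e-05). Mdm4, the Mdm2 relative that inhibits p53, was at 0.38 and 0.31 and was called in neither (limma adjusted p 0.0618 and 0.0751).

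Among the p53 pathway genes with changes of at least 1, Klf4, a zinc finger factor that also responds early to stimulation, rose by 2.96 in WT and 2.57 in KO. Ddit4, an inhibitor of mTOR signalling that is also induced by hypoxia, rose by 1.79 and 1.66. Fdxr, a mitochondrial reductase gene, rose by 1.27 and 1.26, and Bbc3, which encodes the cell death protein Puma, by 1.26 and 1.15. Gdf15, a secreted stress factor, was analysed for the OGD response in KO only, with a mean of -1.01 log2 CPM in N_KO and 0.86 in OGD_KO. It was not analysed in normoxia, so a gene filter passed through the OGD libraries could favour its rise, and without it 9 of 28 genes rose in KO. On the other side, Tigar, which lowers glycolytic flux, fell by 1.43 and 1.23, and Rrm2b, a ribonucleotide reductase subunit gene, fell by 1.21 in WT and 0.92 in KO.

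The death receptor pathway did not move in 1 direction. Of 30 genes 20 were measured, of which 5 rose and 6 fell in WT and 5 rose and 5 fell in KO. These counts lie near the shares of all genes called (21.6% higher and 22.8% lower in WT, 21.0% and 19.9% in KO). The medians were -0.27 in WT and -0.23 in KO. Under summed-read scaling 4 rose and 12 fell in WT, beside 11.4% and 40.4% of all genes, and 3 rose and 11 fell in KO, beside 10.3% and 36.8%. The ligand genes Fasl and Tnfsf10 were not analysed here, nor was Casp8, the caspase gene that acts directly after Fas. Eda, the ectodysplasin gene, was at -0.26 in WT and -0.38 in KO and was not called (limma adjusted p 0.27 and 0.0897). Of the receptors, Edar, which like Fas was not analysed in normoxia, was called higher at 1.88 in WT and 1.32 in KO, and Tnfrsf1a, the main tumour necrosis factor receptor, was called higher at 0.87 and 1.17. Ngfr, the low-affinity neurotrophin receptor gene, fell by 1.18 and 1.4.

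Close relatives of the members rose more often than they fell. Of 19 relatives 18 were measured, of which 12 rose and 2 fell in WT and 11 rose and 2 fell in KO, with medians of 0.68 and 0.6. Of all genes 21.6% were called higher and 22.8% lower in WT, and 21.0% and 19.9% in KO. Without Gadd45b, Tnfrsf12a and Edar, which were not analysed in normoxia, 9 of 15 rose and 2 fell in WT, and 8 rose and 2 fell in KO. Scaled by summed reads, 9 of 18 rose and 3 fell in each genotype, beside 11.4% and 40.4% of all genes in WT and 10.3% and 36.8% in KO. Beside the change of Gadd45a, Gadd45b rose by 1.97 in WT and 1.71 in KO, and Gadd45g by 2.09 and 2.29. Beside Btg2, Btg1 rose by 1.04 and 0.91 and Btg3 by 1.93 and 2.13. Ccng2, the cyclin G relative of Ccng1, rose by 1.0 and 0.91, and Cdkn1b, the cell cycle inhibitor related to Cdkn1a, by 0.84 and 0.86. Tnfrsf12a, the receptor for the ligand Tweak, rose by 2.15 and 2.38. Cdkn1c, the third inhibitor of that family and named after its values were seen, rose by 0.47 and 0.49, beside 0.44 and 0.26 for Cdkn1a. The lists share Mdm4, Ngfr, Edar and Tnfrsf21.

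**Figure D4:**
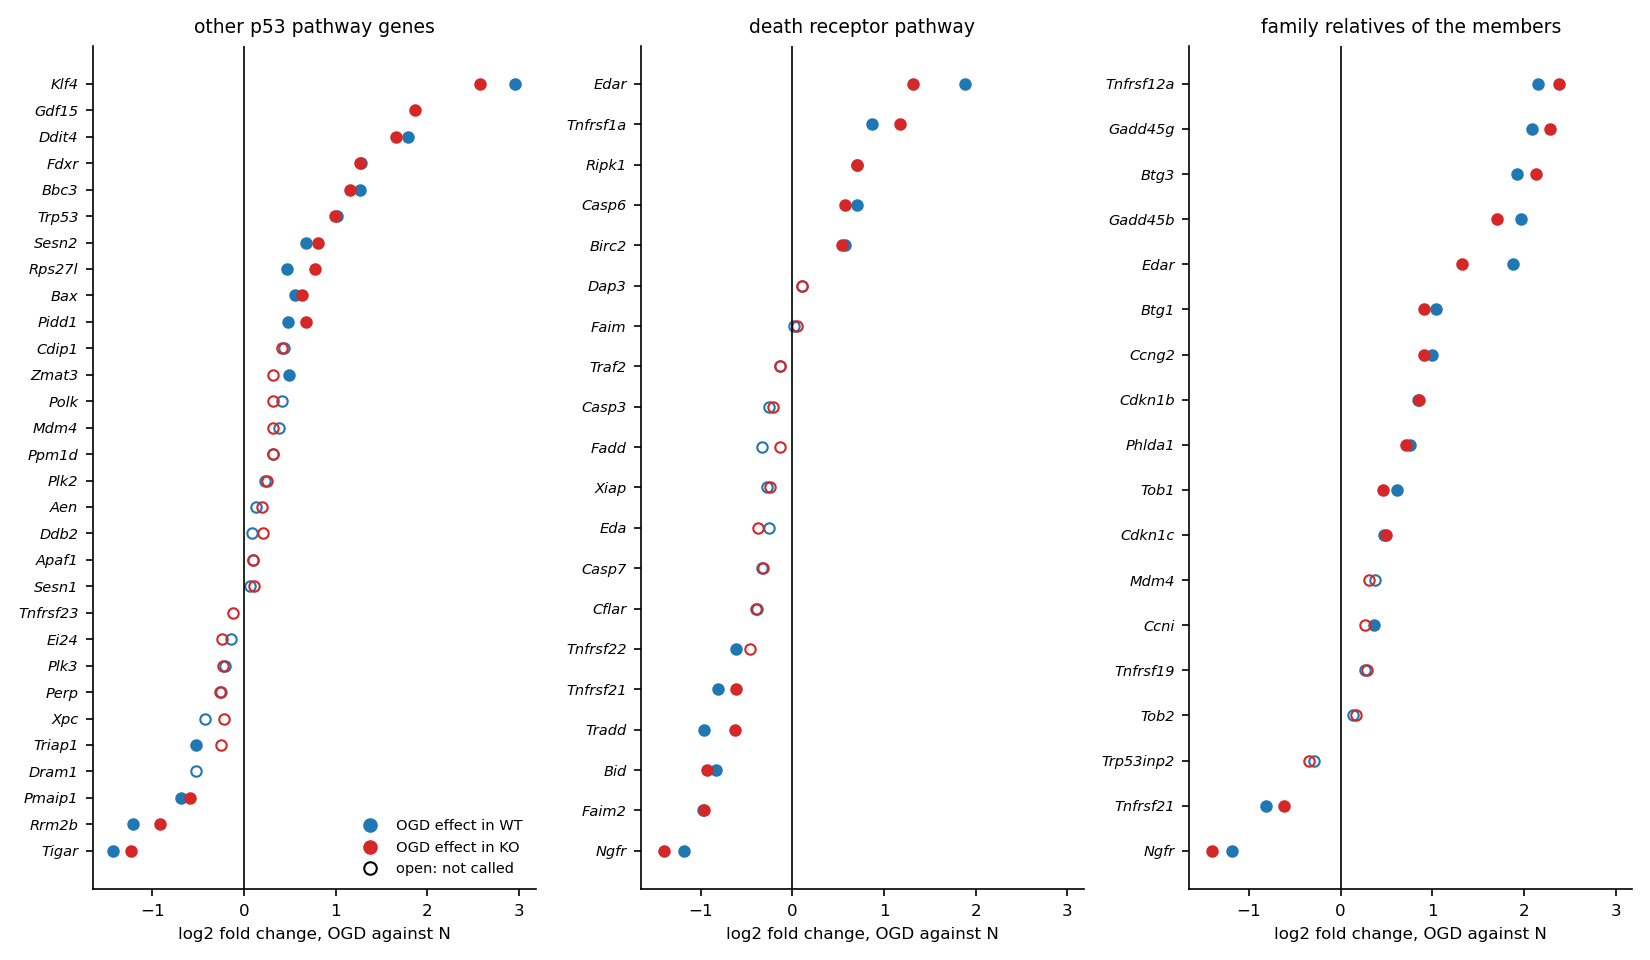
Log2 fold change under OGD of the measured genes of the 3 lists, 1 gene per line, in WT (blue) and KO (red), with filled points for called genes. Klf4 at 2.96 and 2.57 and Tnfrsf12a at 2.15 and 2.38 lead their panels, and Tigar and Ngfr are lowest.

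The second comparison asked whether the knockout of ciRS-7 changed the members. In normoxia limma called 0 of the 8 members in the table, and 0 had an unadjusted p under 0.05, beside 0.0353% of all genes called. Under OGD it called 0 of 10, with 0 at an unadjusted p under 0.05, beside 0.0282%. limma's voom on the recovered reads also called 0 in both. Over all genes 256 of 14152 in normoxia and 253 of 14185 under OGD had an unadjusted limma p under 0.05. That is fewer than a level of 0.05 gives when no gene differs, so the 0 counts do not show absence of an effect. The log2 fold changes by knockout ran from -0.29 (Phlda3) to 0.22 (Btg2) in normoxia and from -0.23 (Fas and Btg2) to 0.21 (Tnfrsf10b) under OGD, and every limma adjusted p was 1.0. The WT and KO groups overlapped for every member in both conditions. Of the other p53 pathway genes limma called 0 of 29 in normoxia and 0 of 28 under OGD, of the death receptor pathway 0 of 19 and 0 of 20, and of the relatives 0 of 15 and 0 of 18. At an unadjusted p under 0.05 these lists held 0 genes in normoxia and 0, 2 and 1 under OGD.

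The intervals show what size of change these libraries could have missed. For Mdm2 the 95% interval by knockout was -0.36 to 0.25 in normoxia and -0.39 to 0.29 under OGD. For Cdkn1a it was -0.22 to 0.6 and -0.38 to 0.35, and for Eda2r -0.56 to 0.12 and -0.31 to 0.3. Fas, compared under OGD only, had an interval of -0.74 to 0.28, with a value of -0.23 that was -0.04 without OGD_KO replicate 5, and Tnfrsf10b one of -0.29 to 0.72. The interval was widest for Btg2, at -0.72 to 1.17 in normoxia and -1.04 to 0.58 under OGD, where the value moved from -0.23 to 0.29 without OGD_KO replicate 5. In normoxia the Btg2 value moved from 0.22 to -0.39 without N_WT replicate 5. Of pooled reads in normoxia, Fas had 14 in WT and 15 in KO, and Tnfrsf10b 44 and 28. The batches differ between the genotypes, since batch 2 held 1 KO culture and batch 3.2 held 1 WT culture. With the batch label as a covariate, and in the batch 3 cultures alone, limma also called 0 members in both conditions. Both alternatives took the parts of batch 3, such as 3.2, as 1 batch. Those parts were unevenly spread over the genotypes, and this was not adjusted for.

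**Figure D5:**
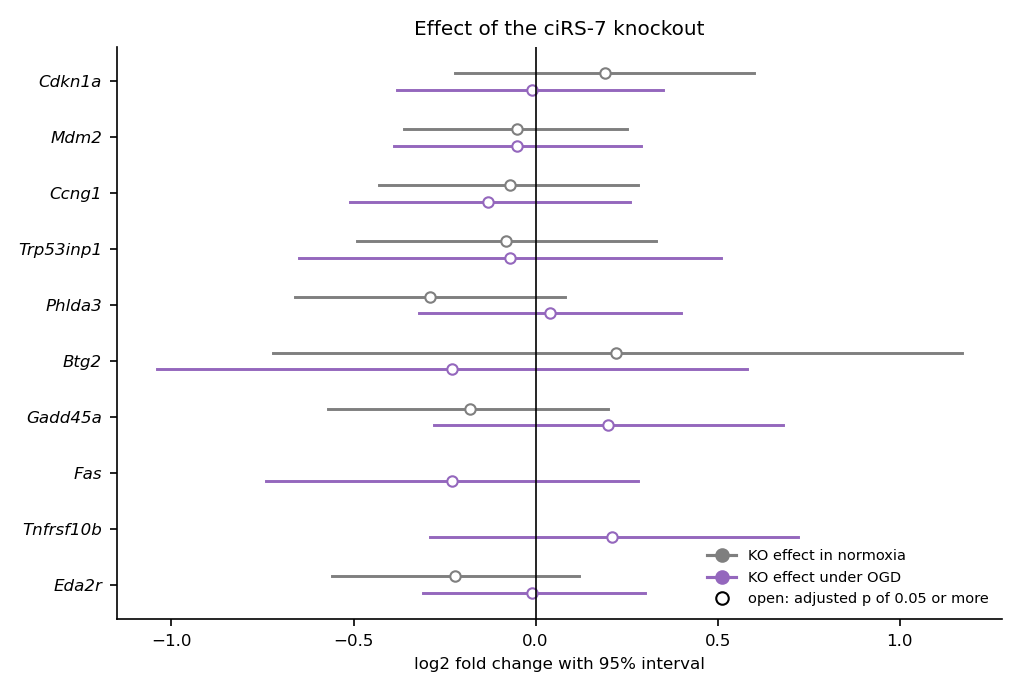
Log2 fold change by knockout (KO minus WT) of the members in normoxia (grey) and under OGD (purple), as points with 95% intervals from limma. All points are open, because no member was called, and Fas and Tnfrsf10b have a value under OGD only. Every interval includes 0.

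Whether the OGD response itself differed between the genotypes was tested by the interaction over the 20 libraries, scaled by their summed reads. limma called 0 of 8 members and 0.0% of 13688 genes, of which 100 had an unadjusted p under 0.05 and none was a member. These 100 are fewer than a level of 0.05 gives when no gene differs, so the test was conservative here. The correlation within the block was estimated at -0.169, and without the block 158 genes had an unadjusted limma p under 0.05. The interaction, KO minus WT, was 0.01 for Mdm2 (95% interval -0.52 to 0.54), -0.2 for Cdkn1a (-0.8 to 0.41), 0.22 for Eda2r (-0.27 to 0.72) and 0.36 for Phlda3 (-0.2 to 0.91). For Btg2 it was -0.46 with an interval of -1.96 to 1.05, and it changed sign to 0.23 without KO culture 5 and to 0.21 without WT culture 5. For Trp53inp1 it was 0.02, and 0.62 without KO culture 5. For Ccng1 it was -0.05, and 0.28 without KO culture 5. Each of these adjusted p-values was 1.0. Fas and Tnfrsf10b could be tested only over the 14097 genes of both OGD tables. There Fas was at -0.42 (-1.53 to 0.69) and Tnfrsf10b at 0.92 (0.05 to 1.79), with an unadjusted limma p of 0.0394 and an adjusted p of 1.0. The calls of Cdkn1a and Ccng1 in WT but not in KO are therefore not shown to differ between genotypes.

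Genes with patterns most like Fas and Cdkn1a were listed as a description over the 20 libraries, which share depth and treatment groups. By Pearson correlation of joint log2 CPM among 12625 genes, the 5 nearest to Fas were Zfp36l2 (0.978), Gem (0.974), Slc2a1 (0.973), Ccn1 (0.972) and Klf4 (0.97). The N and OGD libraries form separate clusters for Fas, so these values largely follow that separation. Among the members compared, Mdm2 (0.933) and Eda2r (0.929) were nearest to Fas, and Trp53inp1 (-0.114) was farthest. Tnfrsf10b averaged under 1 log2 CPM and was not compared. For Cdkn1a the 5 nearest were Mtmr2 (0.881), Rpl12 (0.879), Tox4 (0.862), Col6a3 (0.856) and Aldh1l1 (0.852). None of these is a member, and the nearest of the members compared was Mdm2 at 0.6. Fas was outside the genes compared here by the same limit, and its correlation with Cdkn1a was 0.593. Trp53inp1 (-0.616) and Ccng1 (-0.077) were negatively correlated with Cdkn1a.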

How the data were processed

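Total RNA was sequenced after library preparation with a kit that marks strand, per the labels' protocols. The genome build is mm10, per the submitters' processing notes. The aligner, counting, gene filter and scaling are not given in the sources used here. The deposited values are log2 CPM in 4 tables, 1 per comparison. In each gene and group the authors' lowest and highest values lay where a clip at the 10th and 90th percentile puts them (weights 0.6 and 0.4). This was inferred from the values and undone, after which at least 99.91% of values were whole reads (within 0.05 reads, genes of up to 500 reads), against 45.45% to 92.78% as deposited.

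Each comparison was fitted in its own table with limma 3.58.1 in R 4.3.3 (eBayes with trend, two-sided), adjusted over all 14152 to 14375 genes. The interaction used joint log2 CPM (prior count 2) of the recovered reads of 13688 genes, with the culture as a block. Its libraries were scaled by summed reads, not as in the deposited values. For the likeness of genes, joint values were instead scaled by each library's median ratio to the geometric means of the genes. Single values were compared by exact permutation tests, two-sided. The code was tested on simulated data. Gene positions and 50-base words come from GENCODE M21 (GRCm38, the same build as mm10).

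The members, the 3 gene lists and the rule for named genes were chosen with earlier results of these data known. The rule named 10 regulators and relatives whatever their values, other list genes called in either OGD comparison with a log2 fold change of at least 1 (at most 8 per list), and the 5 genes most like Fas and Cdkn1a among genes averaging 1 log2 CPM or more. Scaling by summed reads outside the interaction, the interaction over both OGD tables or without single cultures, and counts over genes analysed in normoxia too were chosen after seeing the data.

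Same-numbered N and OGD libraries share a batch label, but their deviations correlated at -0.66 to 0.05 in WT and -0.77 to -0.07 in KO. The OGD comparisons were fitted without a block, and with it as an alternative.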

Additional observations from a re-analysis of the deposited data

Results flagged for a closer look

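Of 40 groups of 5 values (10 members in 4 groups), 4 held a single library far from the other 4, by the gap to its nearest neighbour over the range of the group. Chance gives about 2.0. Tnfrsf10b was at 0.61 log2 CPM in N_WT replicate 1 (16 reads), against -0.03 to 0.15 in the others. N_KO replicate 5 had Btg2 at 5.19, above the 4.51 to 4.69 of its group. OGD_KO replicate 5 had Btg2 at 3.74, below the 6.08 to 6.66 of its group. Fas was at 1.99 in OGD_KO replicate 5 (21 reads), against 2.83 to 3.05. Of these 4 values, 3 come from KO culture 5, whose OGD library had the highest mitochondrial share, 37.5%. The part of that share in the values was not tested. Without OGD_KO replicate 5, limma called 8 of 10 members higher under OGD in KO, beside 21.2% of all genes. Of the 8 members that were analysed in normoxia too, it called 6 higher.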

How the results depend on the processing

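In the OGD comparison, the number of members called higher in WT was 9, beside 21.6% of all genes. It was 4 with voom on the recovered reads or with scaling by summed reads, beside 11.4% of all genes in each. Both count the mitochondrial share in full, and the part of that share in the lower number was not tested. With single libraries left out the number of members called higher was 7 to 9 in WT and 6 to 8 in KO. With the culture as a replicate block it was 8 in WT, where Tnfrsf10b was lost, and 6 in KO, where Btg2 was lost. Of all genes 19.5% were then called higher in WT and 17.3% in KO. The block changed no other member's call. Over all genes, 5884 were called in KO and 2341 in the batch 3 cultures alone, which hold 3 cultures. In those cultures the other p53 pathway genes gave 8 higher and 4 lower calls in WT and 6 and 2 in KO. The death receptor pathway gave 5 and 5 and then 2 and 2, and the relatives 10 and 2 and then 6 and 1. The lists held 28, 20 and 18 measured genes in WT and 29, 20 and 18 in KO. Of all genes 16.8% were called higher and 17.7% lower there in WT, and 8.28% and 8.01% in KO. The limit given above for KO calls in these cultures holds here too. Single omissions gave 5250 to 6635 of 14235 genes called in either direction in WT and 4908 to 5930 of 14375 in KO.

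Between genotypes the calls over all genes were few and moved with most settings, while 0 members were called in any. In normoxia 5 genes were called, 9 on the deposited values with the clipping, 3 with the replicate block, 2 in the batch 3 cultures, 3 when genes averaging under 1 log2 CPM were dropped, and 3 to 5 with single libraries left out (3 without N_KO replicate 2). Under OGD 4 were called, 12 with the clipping, 2 with the replicate block, the batch covariate, voom or summed reads, 1 with a prior count of 0.5, and 1 to 7 with single libraries left out. The lowest of these, 1, was without OGD_KO replicate 1 or 2, and the highest, 7, without OGD_KO replicate 5. It was 2 without OGD_WT replicate 1, 3 or 4 or OGD_KO replicate 3. The replicate numbers pair no libraries across genotypes. The interaction gave 0 genes under every alternative run, and no member's called change reversed.

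Tnfrsf10b and normoxic Fas rest on few reads, at most 29 and 6 per library, so small differences in them were not detectable at this depth.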
